A study of Mus musculus with 6 samples.

Results

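The miR-34 family consists of miR-34a-5p, miR-34b-5p and miR-34c-5p, and these 3 mature miRNAs were followed in white adipose tissue (WAT) of control mice and of mice under chronic intermittent hypoxia (CIH). They were picked by their miRBase accessions (MIMAT0000542, MIMAT0000382 and MIMAT0000381, in that order) and the rule itself uses no measured value, although the family was chosen with earlier results of these data known. All 3 were found among the 707 mature miRNAs whose read counts were deposited. Small RNA from 3 control and 3 CIH libraries was sequenced, and the libraries held between 636963 and 4783768 counts. Every animal of both groups was a male ApoE-deficient mouse, which lacks the lipoprotein-clearing apolipoprotein E and develops high blood cholesterol. CIH lasted 8 weeks and cycled the inspired oxygen from 21% to about 6% and back, a model of obstructive sleep apnea. The age of the mice and the fat depot are not given in the sources used here, and no group of wild-type mice was analysed. The extraction text attached to the control libraries is the same as that of the CIH libraries and speaks of injured WAT from CIH animals.

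miRNAs are short RNAs that lower the output of messenger RNAs by pairing with them, mainly through the seed, bases 2 to 8 from the 5′ end. The miR-34 genes are textbook targets of p53, the transcription factor that responds to DNA damage and other stress, and the miRNAs restrain cell cycle and survival genes. miR-34a is the broadly expressed member and is known to rise in fat in obesity. miR-34b and miR-34c are made from a shared primary transcript and are known to be abundant in testis and in ciliated epithelia, and low in most other tissues.

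The sequences are shown because the shared seed ties the members together and because their likeness decides whether reads can be told apart. Of the 3 mature miRNAs, 2 were matched by name in the RefSeq table (GRCm38.p6), and the third, miR-34c-5p, is shown through its hairpin. Capitals mark the seed, or the same 7 bases in a hairpin.
mmu-miR-34a-5p: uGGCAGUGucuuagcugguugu
mmu-miR-34b-5p: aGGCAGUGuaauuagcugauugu
Mir34b hairpin: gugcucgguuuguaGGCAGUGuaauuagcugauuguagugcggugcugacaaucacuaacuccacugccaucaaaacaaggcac
Mir34c hairpin: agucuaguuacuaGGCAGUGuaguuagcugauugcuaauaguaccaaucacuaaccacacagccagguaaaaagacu
The seed GGCAGUG occupied bases 2 to 8 of 4 of the 1679 mature miRNAs of that table (0.238%). These were miR-34a-5p, miR-34b-5p and 2 members of the related miR-449 family, miR-449a-5p and miR-449c-5p, which were not joined to the counts. The list leaves out miR-34c-5p only because it had no mature entry there, and its hairpin holds the same 7 bases. The 7 bases occurred anywhere in 17 of 1005 hairpins (1.69%).

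The 23 bases of miR-34b-5p, laid without gaps on the Mir34c hairpin, matched at 21 positions (bases 13 to 35 of the hairpin). The substitutions were A11G and U23C, written as the base of miR-34b-5p, its position counted from 1 at the 5′ end, and the base of the hairpin. Over these 23 bases, miR-34b-5p and the Mir34c hairpin thus differ at 2 positions, 1 of them the last base. Laid without gaps on the Mir34a hairpin, miR-34b-5p matched at no more than 12 of 23 positions. That placement starts at base 19 of the hairpin and sets the shared seed out of line with the seed there, at bases 21 to 27. Placements with gaps were not made, so the 12 does not measure how alike miR-34a-5p and miR-34b-5p are. How the authors assigned reads that match several miRNAs is not given in the sources used here, so the split between miR-34b-5p and miR-34c-5p carries that uncertainty. No other row of the table held the same 6 counts as any of the 3 members.

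The members come from 2 chromosomes. On GRCm38, Mir34a lies at chr4:150068454-150068555 on the plus strand, and its last 17 bases overlap an exon of Gm37795, a transcript whose type is still to be determined in GENCODE release M21. The annotation has no other miRNA gene within 10 kb of it. Mir34b lies at chr9:51103562-51103645 and Mir34c at chr9:51103034-51103110, both on the minus strand, with 451 bases between them. Both lie in an intron of the protein-coding gene Btg4, which is on the opposite strand.

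The libraries did not fall cleanly by group. Control 3 resembled the CIH libraries more than the other controls. Over the 633 miRNAs that reached 10 counts in all, its log2 levels correlated with those of the 3 CIH libraries at 0.958 to 0.974 and with control 1 and control 2 at 0.595 and 0.661. These correlations run across miRNAs, and miRNAs are no independent replicates. The comparisons and the spread are therefore given with and without control 3. The counts list miRNAs by accession and are not paired with names, so the markers of fat and of other cell types could not be checked against the labelled tissue.

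In 4 of the 6 libraries miR-34c-5p was the most abundant member and among the most abundant miRNAs of all, and in control 1 and control 2 it was below miR-34a-5p. Control 1, 2 and 3 gave 77, 1035 and 91964 counts of it, and CIH 1, 2 and 3 gave 104383, 74241 and 52903. In control 3 it made up 11.6% of all counts (95% Wilson interval 11.5% to 11.7%), and in the CIH libraries 6.62%, 10.1% and 8.31%. In control 1 its share was 0.00564% (0.00451% to 0.00705%) and in control 2 0.0216% (0.0204% to 0.0230%). Such intervals cover counting error only. By count it ranked 2 or 3 in control 3 and in the 3 CIH libraries, and 160 and 113 in control 1 and control 2. Control 3 thus sat with the CIH libraries, and the other 2 controls sat far below. Whether control 3 carries the right label, and whether RNA of another tissue rich in miR-34b and miR-34c entered the 4 libraries with high levels, was not tested. Either would change what the values of both miRNAs and the comparison of the groups mean.

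On the scale of TMM-normalized CPM, counts scaled to a common library size after a correction for composition, miR-34c-5p was at 98.0, 249.7 and 82894 in control 1, 2 and 3. The CIH libraries were at 83828, 80215 and 57380. The control mean was 27747 ± 47758 and the CIH mean 73808 ± 14341 (SD, n = 3 each). Without control 3 the control mean was 173.8 ± 107.3 (SD, n = 2). The groups overlapped, since 1 of the 3 CIH libraries was above control 3. The lowest CIH library was 229.8-fold above control 2 and 586-fold above control 1, and control 3 was 332-fold and 846-fold above them.

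miR-34b-5p, from the same primary transcript, followed the same division of the libraries. The controls gave 0, 28 and 21421 counts of it, and the CIH libraries 26677, 20587 and 11094. The 0 in control 1 allows up to 3 counts, which is 3.82 TMM-normalized CPM in that library. The level was 6.76 TMM-normalized CPM in control 2 and 19308 in control 3, and 21424, 22244 and 12033 in the CIH libraries. It ranked between 7 and 12 in control 3 and the CIH libraries and 335 in control 2. The lowest CIH library was 1781-fold above control 2 and at least 3153-fold above the floor of control 1. Here 2 of the 3 CIH libraries were above control 3 and 1 was below it.

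miR-34a-5p, the member with its own locus, varied far less. The controls gave 89, 1688 and 1347 counts of it, and the CIH libraries 1859, 963 and 1122. As TMM-normalized CPM, controls 1, 2 and 3 were at 113.2, 407.3 and 1214, and CIH 1, 2 and 3 at 1493, 1040 and 1217. Control 3 lay inside the range of the CIH libraries, and controls 1 and 2 lay below it. The lowest CIH library was 2.55-fold above control 2 and 9.19-fold above control 1. Its rank moved from 146 and 96 in control 1 and 2 to between 61 and 74 in the other 4 libraries.

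**Figure D1:**
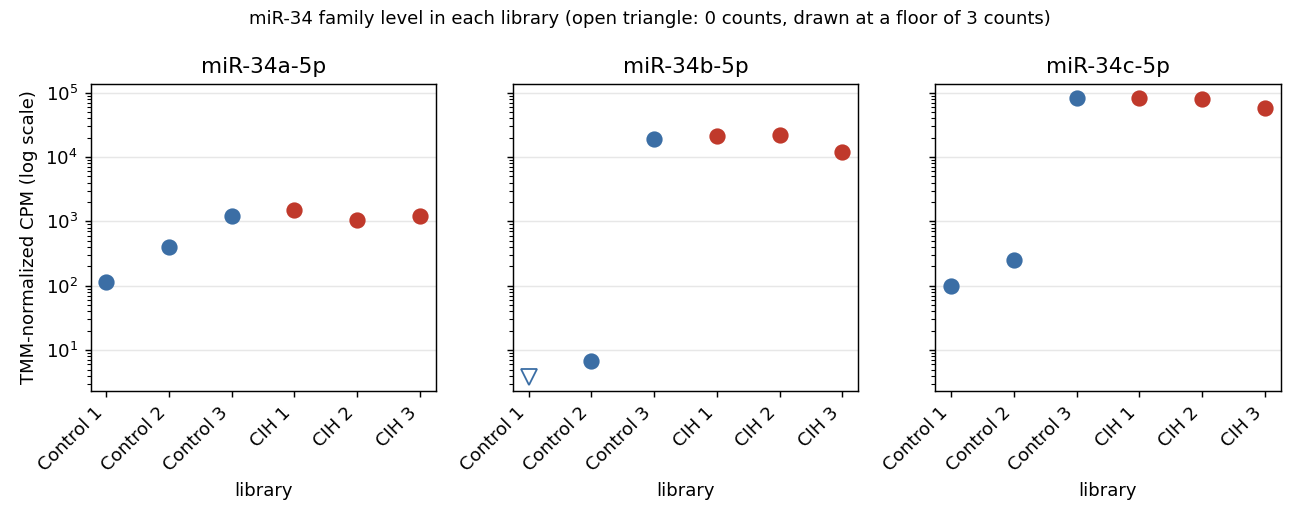
TMM-normalized CPM (log scale) of each member in each library, blue for control and red for CIH. Control 3 lies with the 3 CIH libraries in every panel; miR-34b-5p and miR-34c-5p differ by over 100-fold between those 4 libraries and the other 2 controls, and the open triangle marks 0 counts of miR-34b-5p in control 1, drawn at the floor of 3 counts.

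The spread within the groups differed between members and groups. The coefficient of variation of the TMM-normalized CPM among the 3 CIH libraries was 18.2% for miR-34a-5p, 30.6% for miR-34b-5p and 19.4% for miR-34c-5p. In the same libraries the median over the 395 miRNAs whose mean reached 10 CPM was 27.6%, so the members were about as variable as other miRNAs there. Among the 3 control libraries the values were 98.6%, 173.1% and 172.1%, and the median over the same miRNAs was 84.2%. Without control 3 they were 79.9%, 141.4% and 61.7%, beside a median of 61.7% over the 358 of these miRNAs with a count in either control. With 2 libraries of which 1 is at 0, this measure is always 141.4%, so that value of miR-34b-5p measures no spread. With 3 control libraries, the 173.1% and 172.1% lie close to the largest value that the measure can take. The highest control library was 10.7 times the lowest for miR-34a-5p and 846 times for miR-34c-5p, whereas the CIH libraries spanned 1.43-fold and 1.46-fold.

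**Figure D2:**
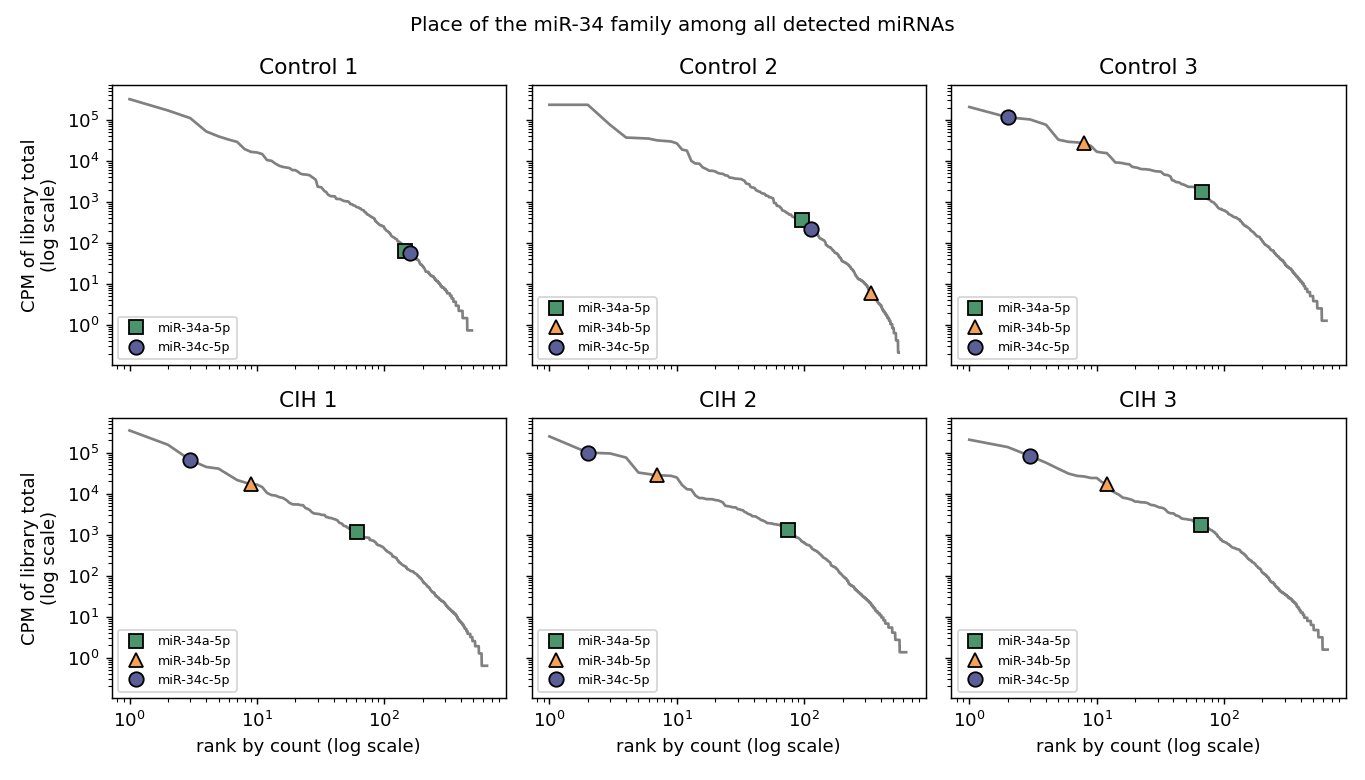
CPM of the library total against rank by count for all miRNAs detected in each library, both on log scales, with the family members marked. miR-34c-5p ranks 2 or 3 in control 3 and the CIH libraries and 160 and 113 in control 1 and control 2, and miR-34b-5p, with 0 counts, is absent from the panel of control 1.

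The make-up of the family changed with its level. Together the 3 miRNAs made up 0.0122% and 0.0575% of all counts in control 1 and control 2, 14.5% in control 3, and 8.42%, 13.0% and 10.2% in the CIH libraries. miR-34a-5p was 53.6% and 61.4% of the family counts in control 1 and control 2. In control 3 it was 1.17%, and in the CIH libraries 1.40%, 1.01% and 1.72%. Thus the broadly expressed member was the larger part of a small total in 2 libraries and a trace of a large total in the other 4. Where a family takes 8.42% to 14.5% of a library, the shares of all other miRNAs are lower by that alone.

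The log2 ratio of miR-34a-5p to miR-34b-5p plus miR-34c-5p (counts plus 0.5) needs no scaling between libraries. It was 0.21 and 0.67 in control 1 and 2 and -6.39 in control 3, against -6.14, -6.62 and -5.83 in CIH 1, 2 and 3. The control mean was -1.84 ± 3.95 and the CIH mean -6.20 ± 0.397 (SD, n = 3 each), a difference of -4.36. A two-sided exact permutation test gave p = 0.3 (0.3 after Benjamini-Hochberg adjustment over 2 ratios), and the smallest p that 3 libraries against 3 allow is 0.1. The groups overlapped because control 3 lay within the range of the CIH libraries. Without control 3 the difference was -6.64.

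Within the shared transcript, the log2 ratio of miR-34c-5p to miR-34b-5p also depended on the library. It was 7.28, 5.18 and 2.10 in control 1, 2 and 3, and 1.97, 1.85 and 2.25 in CIH 1, 2 and 3. In plain counts, miR-34c-5p was 4.29 times miR-34b-5p in control 3 and between 3.61 and 4.77 times in the CIH libraries, so the 4 libraries with high levels had similar proportions of both. In control 2 it was 37.0 times, from 28 counts of miR-34b-5p, and in control 1 no ratio could be formed without the pseudocount. The group means were 4.85 ± 2.60 and 2.02 ± 0.207 (SD, n = 3 each), a difference of -2.83 with p = 0.2 in the same two-sided exact permutation test and 0.3 after adjustment. Without control 3 the difference was -4.21.

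**Figure D3:**
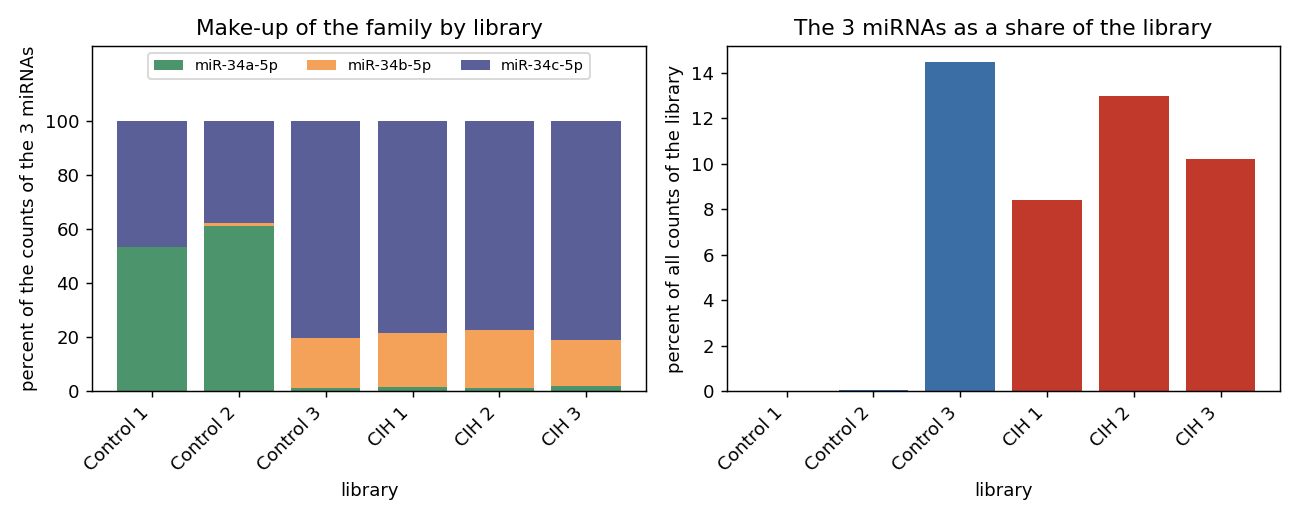
Left, the percent of the family's counts from each member in each library; right, the 3 miRNAs together as a percent of all counts of the library (blue control, red CIH). miR-34a-5p is over 50% of the family in control 1 and control 2 and under 2% in the other 4 libraries, where the family takes between 8.42% and 14.5% of all counts.

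The CIH and control groups were then compared with edgeR's quasi-likelihood test, fitted over all 633 miRNAs. With all 6 libraries the estimates were positive, and none of the 3 members passed the test. The log2 fold change of miR-34a-5p was 1.11 (standard error 0.91, 95% interval -1.07 to 3.29, unadjusted p = 0.264, adjusted p = 0.882). For miR-34b-5p it was 1.53 (standard error 2.69, interval -4.92 to 7.97, unadjusted p = 0.589, adjusted p = 0.889). For miR-34c-5p it was 1.41 (standard error 2.11, interval -3.63 to 6.45, unadjusted p = 0.526, adjusted p = 0.889). These intervals hold no change as well as large changes in either direction. The size of the estimate depended on the model with the same 6 libraries: limma voom gave 8.76 for miR-34b-5p (unadjusted p = 0.0304, adjusted p = 0.418) and 5.81 for miR-34c-5p (adjusted p = 0.427). With the replicate number as a block in edgeR, they were 11.13 and 7.37 (adjusted p = 0.818 for both). Over all miRNAs tested, 0 (0%) had an adjusted p under 0.05 and 16 (2.53%) an unadjusted p under 0.05 in edgeR's test, and DESeq2 gave 0 and 26. The groups overlapped for all 3 members, against 51 of 633 miRNAs (8.06%) whose groups did not overlap. Without control 3 the groups overlapped for none of the 3, and for 324 of 633 miRNAs (51.2%) they did not overlap either. That the libraries of a group came from separate mice is not stated for the sequencing, so p-values measure the spread between these libraries.

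Without control 3, the comparison rested on control 1 and control 2 against the 3 CIH libraries, and 2 of the 3 members passed. Control 3 stood out by these same levels, so this fit leaves out the library that made the groups overlap, and its p-values follow in part from that choice and are no independent evidence of a change under CIH. In edgeR's test miR-34b-5p had a log2 fold change of 12.16 (standard error 1.74, adjusted p = 0.00596), a fitted value that rests on 0 and 28 control counts. miR-34c-5p was at 8.71 (standard error 0.997, adjusted p = 0.00260), and miR-34a-5p was at 2.24 (standard error 0.69, unadjusted p = 0.0182, adjusted p = 0.0736). In this fit 118 of 614 miRNAs (19.2%) were called, 102 (16.6%) of them higher in the CIH group, so many miRNAs besides the 2 members were called as well. By fold change, miR-34b-5p was at place 20, miR-34c-5p at 38 and miR-34a-5p at 149 of the 614. Leaving out any other single library gave estimates between 0.69 and 1.23 for miR-34a-5p, between 0.99 and 1.77 for miR-34b-5p and between 0.88 and 1.57 for miR-34c-5p, and none passed the test. In bulk tissue, fewer cells of a type and less RNA per cell cannot be told apart.

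**Figure D4:**
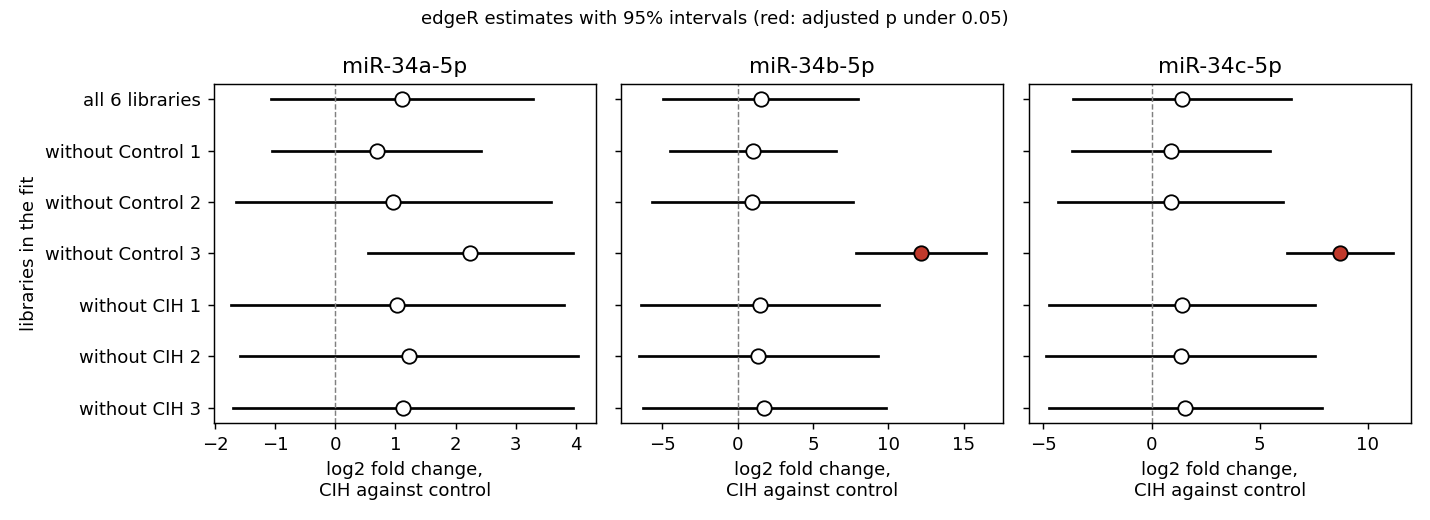
edgeR log2 fold changes of CIH against control (points) with 95% intervals (lines) for each member, with all 6 libraries and with each left out in turn; the axes differ between panels, and red marks an adjusted p under 0.05. Of these fits, only the one without control 3 has intervals that leave out 0, around 2.24 for miR-34a-5p (adjusted p = 0.0736), 12.16 for miR-34b-5p and 8.71 for miR-34c-5p.

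Many other miRNAs shared the division of the libraries. Across the 6 libraries, log2 levels of miR-34b-5p and miR-34c-5p correlated at 0.999, and those of miR-34a-5p correlated with them at 0.95 and 0.94. Of the 632 other miRNAs tested, 100 correlated with miR-34c-5p at 0.95 or more, 96 with miR-34b-5p and 24 with miR-34a-5p. Without control 3 these counts were 105, 101 and 25, and miR-34b-5p and miR-34c-5p still correlated at 0.999 over 5 libraries. These values describe 6 libraries that formed a pair of clusters, and they share depth and composition. In a description chosen after the values were seen, lower levels in control 1 and control 2 were raised to 3.82 TMM-normalized CPM. This is the floor of 3 counts in control 1. Then 42 of 633 miRNAs, miR-34b-5p and miR-34c-5p among them, were at least 10-fold higher in each of control 3 and the CIH libraries than in both other controls. The floor leaves out miRNAs that were at 0 in both other controls and low in the remaining libraries. With a floor of 3 counts, no miRNA showed the reverse. Those 42 miRNAs made up 30.1% of the counts of control 3, 16.0%, 26.9% and 21.8% of those of the CIH libraries, and 0.00754% and 0.0256% of those of control 1 and control 2. Some of the 42 miRNAs had identical levels in every library, for instance 1660.32 TMM-normalized CPM in control 3. Reads counted under several miRNAs would raise both the number of miRNAs and these shares, and whether that happened was not tested. Which tissue or cell type the counts of the 42 miRNAs came from was not tested.

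Among the 238 miRNAs that reached 10 counts in each library, the pattern most like that of miR-34c-5p belonged to MIMAT0000651 (Pearson r = 0.986 over 6 libraries). The controls gave 22, 152 and 295 counts of it, and the CIH libraries 205, 193 and 153. As TMM-normalized CPM, controls 1, 2 and 3 were at 28.0, 36.7 and 265.9. The CIH libraries were at 164.6, 208.5 and 165.9. Correlation leaves out the size of a change, and the libraries differed far less here than for miR-34c-5p. The next were MIMAT0000229 (r = 0.973) and MIMAT0004931 (r = 0.972). For miR-34a-5p they were MIMAT0017347 and MIMAT0017243, which had identical counts in all libraries (r = 0.982), and MIMAT0004651 (r = 0.961). The filter on every library removed the miRNAs that, like miR-34b-5p, were near 0 in control 1.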

How the data were processed

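The authors deposited raw read counts per mature miRNA, without normalization. Trimming, aligner, miRNA release and the treatment of ambiguous reads are not given in the sources used here. The members and lists were chosen with earlier results of these data known. Libraries were grouped by their labels, and none of the pairs agreed within counting noise (chi-square test).

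miRNAs with at least 10 counts in all were tested with edgeR 4.0.16 in R 4.3.3 (TMM factors, quasi-likelihood test, no term besides group) and adjusted by Benjamini-Hochberg over all miRNAs. Standard errors came from the fold change and the F statistic. Ratios used counts plus 0.5. Likeness used log2 CPM (prior count 2) and named the 3 miRNAs closest to each member with at least 10 counts in every library. Alternatives were DESeq2 1.42.0, limma 3.58.1 with voom, other scalings and filters, the exact test, the replicate block and each library left out. Python 3.11.15, scipy 1.17.1 and pandas 2.3.3 were used. The lists of passenger arms, p53-responsive miRNAs and cell type markers were not run, because the accessions are not paired with names.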

Additional observations from a re-analysis of the deposited data

How the results depend on the processing

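All 17 alternatives gave positive log2 fold changes for each of the 3 members. They reuse the same libraries, and each keeps control 1 or control 2, which lay below every CIH library in TMM-normalized CPM. The shared sign is thus no independent evidence of a direction. The only adjusted p under 0.05 were those of miR-34b-5p (12.16) and miR-34c-5p (8.71) in edgeR's test without control 3. With each library left out, the values ran from 0.69 to 2.24 for miR-34a-5p, 0.99 to 12.16 for miR-34b-5p and 0.88 to 8.71 for miR-34c-5p. Other settings gave 0.74 to 1.66, 1.20 to 11.13 and 1.10 to 7.37. limma voom gave 8.76 for miR-34b-5p and 5.81 for miR-34c-5p (adjusted p 0.418 and 0.427), in place of 1.53 and 1.41, and the cause was not tested. DESeq2 gave no p for miR-34c-5p. Library sizes without the 3 members, an alternative chosen after seeing the data, gave 1.09, 1.496 and 1.38.

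Replicate numbers 1 to 3 occur in both groups. Deviations of same-numbered libraries correlated at 0.353 for number 1, -0.116 for number 2 and 0.0195 for number 3. A pairing was thus not shown for all 3 numbers, and whether the libraries numbered 1 share a source of variation was not tested. With the replicate block the values were 1.64, 11.13 and 7.37, with an adjusted p of 0.818 for each, and the count of miRNAs at an unadjusted p under 0.05 was 3 in place of 16. Both ratios stayed lower in the CIH group in all 8 alternatives, from -6.64 to -3.10 for miR-34a-5p to the others and from -4.21 to -1.62 for miR-34c-5p to miR-34b-5p with each library left out. The second was -2.49 and -3.61 with pseudocounts of 1 and 0.1. All 8 alternatives reuse the same libraries, so the shared sign of each ratio is no independent evidence. The 0 and 28 counts of miR-34b-5p limit its values in control 1 and control 2.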
